A study of Drosophila melanogaster with 2 samples.

Results

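The genes described here encode the initiation and elongation factors of translation, taken as the protein-coding genes of the Ensembl annotation whose symbol starts with eIF or eEF. The rule found 52 of 13945 protein-coding genes, of which 8 encode elongation factors and 44 encode initiation factors. The protein mapped was NC2beta, a subunit of the NC2 cofactor (Dr1 and DRAP1), which binds the TATA-binding protein at core promoters. Its binding was read by chromatin immunoprecipitation with sequencing (ChIP-seq), in which anti-GFP antibody pulled down chromatin of Drosophila melanogaster embryos, whole and of both sexes, aged 0 to 24 h. The embryos came from a single transgenic line that makes NC2beta with eGFP at its C terminus. The samples formed 1 group of 2 biological replicates, numbered 1 and 3, so there was no other genotype, treatment or age to compare with. Embryos of all these hours and all tissues were mixed, so a peak does not show in which cells or at which stage the protein was bound. The control was not analysed here, so the recovery of promoter DNA without the tagged protein is not known for any gene below.

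Translation initiation begins when eIF2 brings the initiator tRNA to the small ribosomal subunit, with eIF1 and eIF1A guiding the search for the start codon and eIF3 holding the parts together. The mRNA is recruited through its cap by eIF4E, the scaffold eIF4G and the helicase eIF4A. eIF5 and eIF5B then release eIF2 and join the large subunit, and eIF2B recharges eIF2 with GTP. In elongation, eEF1alpha delivers each aminoacyl-tRNA, the other eEF1 subunits recharge it, and eEF2 moves the ribosome along. In flies and mammals, genes of ribosomal proteins and of some of these factors start transcription at a pyrimidine-rich TCT initiator in place of the usual initiator, and many housekeeping promoters of flies carry the DNA replication-related element (DRE).

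The start sites of the factor genes were of several kinds, shown here by sequences of the Release 6 reference genome (build dm6) from 40 bases before to 20 bases from the transcription start site (TSS) on, each on the gene's own strand, so that the TSS is base 41. Position 1 is the TSS and there is no position 0. The first set shows the TCT element, with its 8 bases in capitals; in eIF3f1 and eEF1gamma a DRE is in capitals too. The exact element, CTTT with a pair of pyrimidines on each side, is in eEF2, eIF3f1 and eIF3e. eEF1gamma, eIF4A and eIF3i hold a match with 1 mismatch, which in eEF1gamma is a G in place of the C of CTTT. With 1 mismatch allowed, 10.02% of all protein-coding genes have a match.
eEF2: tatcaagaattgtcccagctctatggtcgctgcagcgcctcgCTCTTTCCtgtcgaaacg
eEF1gamma: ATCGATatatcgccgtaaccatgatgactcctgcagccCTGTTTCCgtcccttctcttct
eIF3f1: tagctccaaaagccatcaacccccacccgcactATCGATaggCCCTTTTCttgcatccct
eIF3e: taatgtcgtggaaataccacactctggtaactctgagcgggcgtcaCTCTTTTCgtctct
eIF4A: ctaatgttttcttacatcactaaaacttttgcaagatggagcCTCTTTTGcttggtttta
eIF3i: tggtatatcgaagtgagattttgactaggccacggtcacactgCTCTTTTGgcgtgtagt
In dm6, with the strand in brackets, these are eEF2 chr2L:21682097-21682156 (minus), eEF1gamma chr3R:29220132-29220191 (plus), eIF3f1 chr3R:4714163-4714222 (minus), eIF3e chr3L:16786922-16786981 (minus), eIF4A chr2L:5981724-5981783 (plus) and eIF3i chr2L:4967756-4967815 (minus). The second set shows the DRE, ATCGAT, in capitals, at genes with an optimal NC2beta peak (eIF4E1, eIF2gamma and eIF5B) and at genes without one (eIF2alpha, eIF4G1, eIF4B and eIF1). The last line is eIF4H1, where the capitals mark Motif 1, another core promoter element of flies.
eIF4E1: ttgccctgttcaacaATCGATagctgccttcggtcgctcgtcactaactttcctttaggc
eIF2gamma: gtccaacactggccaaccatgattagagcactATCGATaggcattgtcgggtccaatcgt
eIF5B: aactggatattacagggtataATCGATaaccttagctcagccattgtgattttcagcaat
eIF2alpha: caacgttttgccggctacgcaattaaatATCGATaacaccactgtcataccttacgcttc
eIF4G1: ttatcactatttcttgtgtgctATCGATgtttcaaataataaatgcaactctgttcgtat
eIF4B: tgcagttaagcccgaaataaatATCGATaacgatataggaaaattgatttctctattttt
eIF1: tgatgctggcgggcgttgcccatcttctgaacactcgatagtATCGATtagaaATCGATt
eIF4H1: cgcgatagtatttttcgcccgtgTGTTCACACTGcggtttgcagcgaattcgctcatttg
These are eIF4E1 chr3L:9402441-9402500 (minus), eIF2gamma chr3R:15263439-15263498 (minus), eIF5B chr3L:3460584-3460643 (minus), eIF2alpha chrX:16446974-16447033 (minus), eIF4G1 chr4:930696-930755 (minus), eIF4B chr3L:27858252-27858311 (minus), eIF1 chr3L:3223301-3223360 (plus) and eIF4H1 chrX:16448625-16448684 (plus). In this second set the same 6 letters, starting 8 to 25 bases upstream of the TSS, stand at genes that had an optimal peak and at genes that had none; eIF1 carries them at positions 3 and 14.

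NC2beta was called at 22 of the 52 factor genes (42.3%, 95% exact binomial interval 28.7 to 56.8), against 17.6% of all protein-coding genes. A gene is called bound where the summit of a peak of the authors' optimal set lay within 250 bp of any of its TSSs. The optimal set held 3897 peaks with heights between 74.1 and 1496 and a median of 112; the height is the authors' own value and its unit is not stated in the labels or files. A further 17 factor genes had only a lower region of the pooled list there, and 13 had none. With a region of any height counted, 39 factor genes (75%) were marked, against 48.5% of all protein-coding genes. Among genes with such a region, 56.4% of the factor genes and 36.2% of all protein-coding genes reached the optimal set.

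The excess over all genes lay mainly in the genes with several annotated start sites. Of the 20 factor genes with 2 or more TSSs, 16 were bound (80.0%), against 28.4% of all such protein-coding genes. Of the 32 factor genes with 1 TSS, only 6 were bound (18.8%), which is near the 13.6% of all such protein-coding genes. The 6 were eIF6, eIF4EHP, eIF3a, eIF3k, eIF2D and eIF2beta. With the most upstream TSS of each gene alone 21 factor genes were bound (40.4%), against 15.9% of all genes, and eIF3h was the gene lost. eEF1alpha1 stayed in this count only through another peak, of height 104, which lay 130 bp from that TSS and 26 bp from the TSS of ERp60. Across the bound factor genes the median height was 113, beside 112 for all bound genes, and 11 of the 22 lay above the median of the optimal set. As a list the factor genes were thus marked more often than all genes, mainly through those with several TSSs. The bound ones had a median height near that of all bound genes. Their upper quartile was higher (220 against 168) and their lower quartile was slightly lower (85.0 against 89.7). Their median relative height, a height divided by that replicate's median over the optimal peaks, was 1.06 in replicate 1 and 1.15 in replicate 3. For all bound genes it was 1.00 and 0.982. These values cover only genes whose peak reached the optimal set. The heights differed widely within the list.

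Elongation factors had the higher peaks. The 4 bound elongation factor genes had pooled heights between 292 and 613 with a median of 411, and the 18 bound initiation factor genes had heights between 75.1 and 484 with a median of 98.7, a ratio of medians of 4.16. Only eIF6 among the initiation factor genes was above the lowest bound elongation factor gene. The shares bound were alike, 4 of 8 for elongation (50%, interval 15.7 to 84.3) and 18 of 44 for initiation (40.9%, interval 26.3 to 56.8). In replicate 1 the median relative height, which is a height divided by that replicate's median over the optimal peaks, was 3.73 for elongation and 0.874 for initiation. In replicate 3 it was 3.10 for elongation and 0.904 for initiation. Genes are not replicates, and the difference between the classes was not tested.

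**Figure D1:**
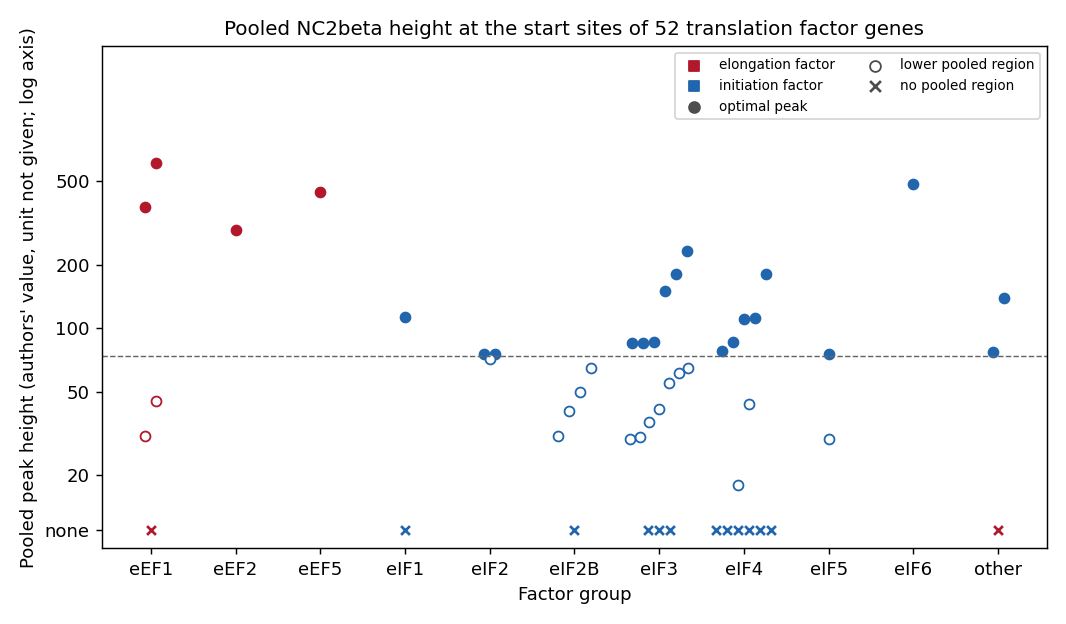
Pooled peak height (log axis, authors' value in a unit not given) at each of the 52 factor genes by factor group; filled points are optimal peaks, open points are lower pooled regions, crosses are genes with no pooled region, and the dashed line is the lowest optimal height of 74.1. The 4 filled elongation points and eIF6 lie at 292 or above, and no eIF2B gene is filled.

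By their medians, the ribosomal protein genes were closer in height and summit position to the bound elongation factor genes than to the bound initiation factor genes. Their ranges were wider than those of the elongation factor genes. Of 87 cytoplasmic ribosomal protein genes 76 were bound (87.4%), and their peaks had a median height of 328, with quartiles of 225 and 474. The heights of the bound ribosomal protein genes ran from 91.4 to 1399, against 292 to 613 for the bound elongation factor genes. Their median relative height was 2.95 in replicate 1 and 2.58 in replicate 3 at the ribosomal protein genes. The bound elongation factor genes had a median summit position of −18.5 bp from the TSS (minus is upstream) and the ribosomal protein genes one of −17 bp. The bound initiation factor genes had one of −67.5 bp and all bound protein-coding genes one of −70 bp. Summits lay from −203 to 69 bp at the ribosomal protein genes and from −26 to 2 bp at the elongation factor genes, with median distances of 33 and 18.5 bp.

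The highest peak of the list lay at eEF1gamma (FBgn0029176), which encodes a structural subunit of the exchange complex of eEF1alpha. It covered chromosome 3R from 29219917 to 29220341, with its summit 16 bp upstream of the TSS at 29220172 (plus strand) and a pooled height of 613, the 51st highest of the pooled list. Its height was 375 in replicate 1 and 244 in replicate 3, and its relative height was 5.32 and 5.17, a mean of 5.24 ± 0.104 (SD, n = 2). Both replicates thus placed it more than 5 times above the median optimal peak. Its start site is the one shown above with a DRE at −40 and a TCT match with 1 mismatch that covers the TSS. The mismatch is a G at the TSS, where the exact element has the C of CTTT.

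eEF5 (FBgn0285952) is the fly counterpart of mammalian eIF5A, which helps the ribosome past residues that form peptide bonds slowly. Its peak lay on 2R from 24057609 to 24058027 with a pooled height of 444, and its summit was 21 bp upstream of the TSS. Its height was 298 in replicate 1 and 143 in replicate 3, and its relative height was 4.22 and 3.03 (mean 3.63 ± 0.837, SD, n = 2). The replicates differed more here than at eEF1gamma, but both were far above 1. A separate optimal peak of height 276 stood 2560 bp downstream of an eEF5 TSS, beyond the end of the gene and 35 bp from the TSS of RpL12.

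eEF1alpha1 (FBgn0284245) encodes the main form of the factor that delivers aminoacyl-tRNA. It has 4 annotated TSSs, and the peak of height 378 lay 26 bp upstream of one inside the gene, at 11892122 on 2R. The height was 229 in replicate 1 and 150 in replicate 3, with relative heights of 3.25 and 3.17 (mean 3.21 ± 0.0515, SD, n = 2), so the replicates gave nearly the same relative value. Another optimal peak, of height 104, lay 130 bp upstream of the first eEF1alpha1 TSS and 26 bp from the TSS of its neighbour ERp60, so eEF1alpha1 had summits near 2 of its start sites.

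eEF2 (FBgn0000559), the translocase, had its peak on 2L from 21681924 to 21682305, with a pooled height of 292. The height was 207 in replicate 1 and 91.4 in replicate 3, with relative heights of 2.94 and 1.94 (mean 2.44 ± 0.705, SD, n = 2). The replicate 3 region was centred 130 bp downstream of the TSS. The replicate 3 region nearest the pooled summit was centred 69 bp upstream of the TSS and was lower, at 73.2 (relative height 1.59). The pooled summit was 2 bp downstream of the TSS at 21682116 (minus strand). The TCT element of eEF2 has its C at position 5, so the pooled summit fell 2 bp upstream of that C. None of the 4 bound elongation peaks had another gene's TSS within 250 bp of its summit.

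The remaining 4 elongation factor genes were not in the optimal set. eEF1alpha2, the second eEF1alpha gene, had a region of height 45.0, with 29.6 in replicate 1 and 17.8 in replicate 3. eEF1beta, an exchange factor subunit, had a region of height 30.7, with 18.6 in replicate 1 and 18.2 in replicate 3. Of these, eEF1alpha2 was at 0.419 and 0.378 and eEF1beta at 0.264 and 0.385 of the median optimal peak in replicates 1 and 3. eEF1delta, a further exchange subunit, and eEFSec, which delivers selenocysteyl-tRNA, had no region in the pooled list or in either replicate list. The subunits of the eEF1 complex thus ranged over the whole scale, with eEF1gamma at the top of the list and eEF1delta unmarked.

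**Figure D2:**
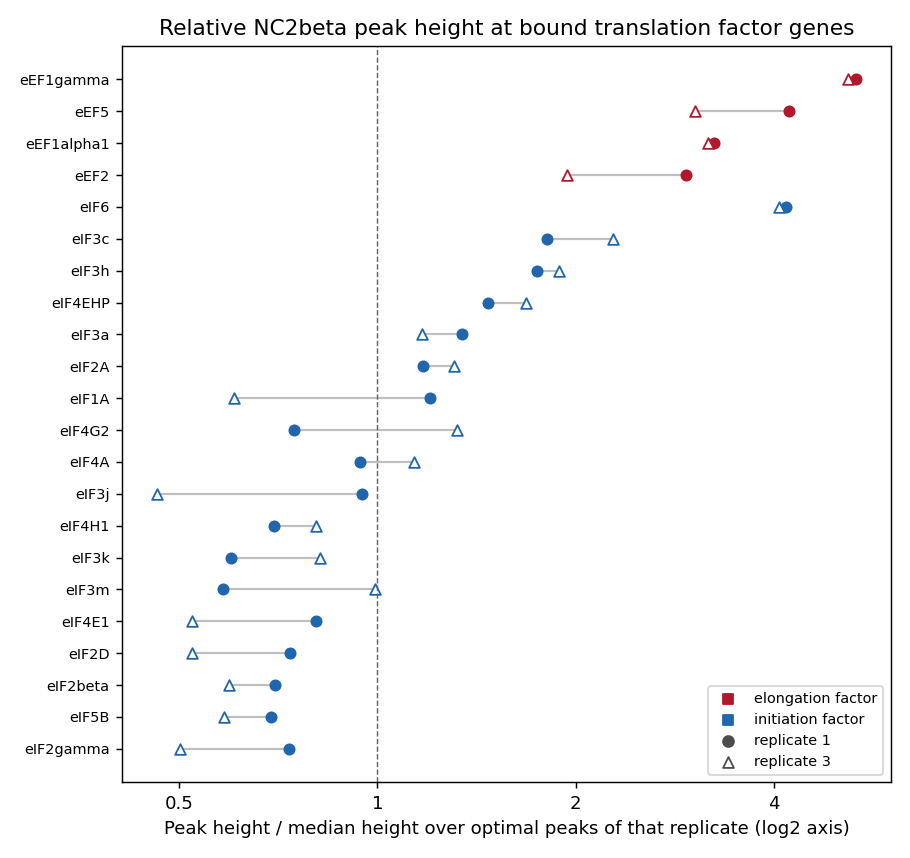
Relative height (log2 axis, height divided by the median over optimal peaks of the same replicate) at the 22 bound factor genes, with replicate 1 as filled circles, replicate 3 as open triangles, and the dashed line at the median optimal peak. The 4 elongation factor genes at the top lie between 1.94 and 5.32 in both replicates.

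eIF6 (FBgn0034915) was the highest initiation factor gene. It encodes the factor that keeps the large ribosomal subunit from joining the small one too early. Its peak lay on 2R from 23850250 to 23850550 with a pooled height of 484 and its summit 85 bp upstream of the single TSS. The height was 295 in replicate 1 and 192 in replicate 3, with relative heights of 4.18 and 4.06 (mean 4.12 ± 0.0794, SD, n = 2). The next initiation factor gene by height was eIF3c, at 233.

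eIF3, the scaffold of the initiation complex, had 6 of its 16 genes bound (37.5%, interval 15.2 to 64.6). That interval holds the 17.6% of all protein-coding genes. eIF3c, a core subunit, had a pooled height of 233, 127 in replicate 1 and 107 in replicate 3 (relative height 2.04 ± 0.332, SD, n = 2). eIF3h had 181 pooled and 89.0 in replicate 3. Its highest region in replicate 1, of 123, lay at a second eIF3h peak 270 bp downstream of the TSS, and the region at the summit itself was 98.6 there, so the relative height was 1.82 ± 0.101 with the highest region and averaged 1.68 with the nearest one. eIF3a, the largest core subunit, had 150 pooled, 94.8 in replicate 1 and 55.0 in replicate 3 (1.26 ± 0.125). eIF3c, eIF3h and eIF3a were above the median optimal peak in both replicates. eIF3j, eIF3k and eIF3m were near the lower edge of the optimal set, with pooled heights of 86.2, 85.0 and 85.0. In replicate 1 these had heights of 66.8, 42.4 and 41.2, and in replicate 3 heights of 21.8, 38.5 and 46.7. Of the other subunits, eIF3d1 (64.4), eIF3b (61.2), eIF3f1 (54.8), eIF3e (41.4), eIF3i (35.7), eIF3l (30.3) and eIF3g1 (29.7) had lower regions.

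The subunits of eIF2, which carries the initiator tRNA, had nearly equal pooled heights on either side of the threshold. eIF2beta had 75.6 and eIF2gamma 75.1, just inside the optimal set, and eIF2alpha had 71.3, just outside it. In replicate 1 the heights were 49.4 for eIF2beta, 51.9 for eIF2gamma and 54.3 for eIF2alpha. In replicate 3 they were 28.1 for eIF2beta, 23.7 for eIF2gamma and 10.5 for eIF2alpha. eIF2alpha was thus the highest of the 3 in replicate 1 and the lowest in replicate 3, where its value was below the list's median of 14.7. The eIF2beta summit was the farthest of all bound factor genes from its TSS, 237 bp upstream, and the eIF2gamma TSS is also the TSS of Su(var)3-9, which shares its promoter.

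None of the 5 genes of eIF2B, the exchange factor of eIF2, was bound (0 of 5, interval 0 to 52.2%, which holds the 17.6% of all protein-coding genes). eIF2Bepsilon, the catalytic subunit, had a region of height 64.7 with 40.5 in replicate 1 and 25.5 in replicate 3, and its summit was nearer to the TSS of the divergent Ocrl (29 bp) than to its own (78 bp). eIF2Bdelta, whose summit was 28 bp from its own TSS and 30 bp from that of roh, had 49.7 with 35.1 and 16.6. eIF2Bgamma had 40.6 with 19.8 and 15.1, and eIF2Bbeta had 30.9 with 12.1 and 16.9 in replicates 1 and 3. eIF2Balpha had no pooled region, none in replicate 1 and a region of 27.6 in replicate 3. The eIF2B genes therefore formed a graded set below the optimal threshold. An optimal peak with a height of 1201 stood 689 bp upstream of eIF2Bbeta, but its summit was 30 bp from the TSS of Ugalt.

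Of the eIF4 group, taken by symbol and only in part cap-binding, 5 of 13 genes were bound (38.5%, interval 13.9 to 68.4, which holds the 17.6% of all protein-coding genes). eIF4A, the helicase, had a pooled height of 111 with 66.4 in replicate 1 and 53.6 in replicate 3, a relative height of 1.04 ± 0.139 (SD, n = 2). eIF4E1, the main cap-binding protein, had 77.6 with 56.9 in replicate 1 and 24.7 in replicate 3 (0.665 ± 0.20). eIF4H1, which stimulates eIF4A, had 85.7 with 49.1 and 38.0 (0.751 ± 0.0776). eIF4A was thus close to the median optimal peak and the other 2 were below it. eIF4B, another helper of eIF4A, had no region in any list, and its nearest optimal peak was 591049 bp away.

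Single-subunit factors of start codon selection and subunit joining had peaks near or below the median. eIF1A had a pooled height of 113 with 84.8 in replicate 1 and 28.6 in replicate 3 (relative height 0.904 ± 0.420, SD, n = 2). eIF5B, the GTPase of subunit joining, had 75.1 with 48.7 and 27.6 (0.638 ± 0.0747), and eIF5, which makes eIF2 hydrolyse its GTP, had only a region of 29.6 at a TSS it shares with CG46312. eIF1 had no pooled region and a region of 13.8 in replicate 3. An optimal peak of height 459 was centred 335 bp upstream of the eIF1 TSS, but it was 46 bp from the TSS of RpL28, which encodes a ribosomal protein. eIF1 was the 1 gene added when the distance was widened to 500 bp, where 20.7% of all protein-coding genes were bound. eIF2A and eIF2D, which in mammals can bring the initiator tRNA without eIF2, had 140 (relative height 1.24 ± 0.0943) and 76.9 (0.630 ± 0.151, SD, n = 2).

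The replicates ordered the 22 bound genes alike, with a Spearman's rho of 0.78 between their relative heights; these points share the selection into the optimal set, so this is a description. Relative heights were higher in replicate 1 at 13 genes and higher in replicate 3 at 9, and at 21 genes they were within 1 log2 unit. The exception was eIF3j, with 0.947 in replicate 1 and 0.464 in replicate 3, a log2 difference of 1.03. Next were eIF1A (0.98 toward replicate 1), eIF4G2 (−0.82, toward replicate 3) and eIF3m (−0.76, toward replicate 3). At 5 of the 22 genes (eEF2, eIF3h, eIF4G2, eIF3j and eIF2beta) the highest region within 250 bp of the pooled summit was not the nearest one in 1 replicate. With the nearest region 20 genes were within 1 log2 unit, and eIF4G2 (−1.37) and eIF3j (1.14) were not. By pooled height eIF3j, eIF4G2 and eIF3m lay below the median of the bound factor genes (112.7), and eIF1A (113.3) lay just above it. Both replicates held 13 of the 22 genes among their own highest 3897 regions. The read totals behind the lists are not known, and the part of depth in these differences was not tested.

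As a group, the pooled summits of the 4 bound elongation factor genes were closer to the TSS than those of the initiation factor genes. The 4 lay from 26 bp upstream to 2 bp downstream, with a median distance of 18.5 bp, whereas the 18 of the initiation factor genes lay from 237 bp upstream to 93 bp downstream with a median distance of 78 bp. For all bound protein-coding genes the median distance was 81 bp. Of the initiation factor genes eIF4E1 (3 bp) and eIF4G2 (4 bp) had summits as close. Each of the 4 bound elongation factor genes has 2 or more annotated TSSs, and the nearest was used. At eEF2 the replicate 3 regions lay 130 bp downstream (highest) and 69 bp upstream (nearest) of that TSS. Upstream summits made up 17 of the 22 (77.3%), against 80.2% for all bound genes, and eIF3h (69 bp) and eIF3j (93 bp) were the farthest downstream.

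**Figure D3:**
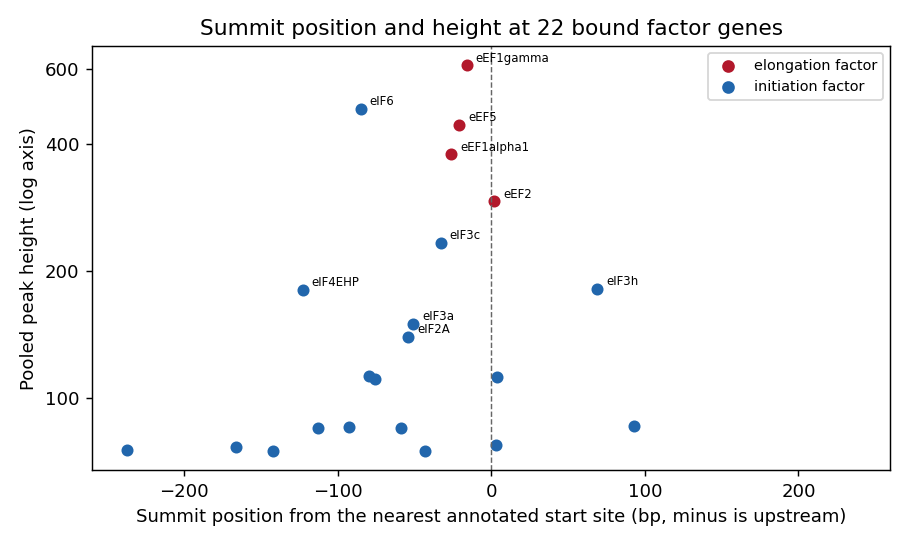
Summit position from the nearest annotated TSS (bp, minus is upstream) and pooled height (log axis) at the 22 bound factor genes, with names for those above 130. The 4 elongation factor genes lie within 26 bp of the TSS, while the initiation factor genes spread from −237 to 93 bp.

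Some of the peaks lay at promoters shared with another gene. Another gene had a TSS within 250 bp of the summit at 6 of the 22 bound factor genes (27.3%, interval 10.7 to 50.2), against 47.0% of all bound genes, which lies inside that interval. All 6 were initiation factor genes. eIF2gamma and eIF4G2 share their TSS with Su(var)3-9 and CG33111 on the same strand, so no summit can be assigned to either gene alone, and the divergent Set has its TSS 51 bp from the eIF2gamma summit. At eIF3a the TSS of the divergent gene CG1074 was nearer to the summit (19 bp) than that of eIF3a (51 bp). At eIF3m and CG8323 both TSSs were 113 bp away. eIF1A has the divergent Vps39 (139 bp from the summit, against 80 bp for eIF1A) and eIF3h has senju (132 bp, against 69 bp).

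Several factor genes held more than 1 optimal peak. At eIF3h a second peak, of height 194, was centred 270 bp downstream of the same TSS. Within eIF4EHP, which encodes a cap-binding repressor that does not bind eIF4G, a peak of height 177 lay 9768 bp downstream of the TSS, and another of height 81.0 was 41 bp from the TSS of Syx1A. eIF5B held peaks of height 88.2 and 145, which were 27722 and 21927 bp downstream of its TSS and at least 7946 bp from any protein-coding TSS.

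Paralogs were compared in 8 families with 21 genes, of which 5 were bound (23.8%, interval 8.22 to 47.2, which holds the 17.6% of all protein-coding genes). Outside these families 14 of the 27 initiation factor genes were bound (51.9%, interval 31.9 to 71.3), and the intervals overlap. The sets differed in TSS number, and the families also include elongation factor genes. Among genes with 2 or more TSSs, 4 of 5 paralogs and 9 of 12 of the other set were bound. Among genes with 1 TSS, 1 of 16 paralogs and 5 of 15 of the other set were. The difference between the sets was not tested. In 7 of the families the form with the highest peak was the one numbered 1, eEF1beta or eIF4EHP, and in the eIF4G family it was the one numbered 2. eEF1alpha1 (378) stood far above eEF1alpha2 (45.0), and in each replicate the 2 genes were well apart, at 229 and 29.6 in replicate 1 and at 150 and 17.8 in replicate 3. eIF3d1, eIF3f1 and eIF3g1 had lower regions (64.4, 54.8 and 29.7), and eIF3d2, eIF3f2 and eIF3g2 had no region in any list. eIF4H1 was bound (85.7) and eIF4H2 had no region in any list.

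The eIF4G family ran the other way. eIF4G2, which is known for its role in the male germ line, had an optimal peak of height 112 with 52.8 in replicate 1 and 62.2 in replicate 3 (relative height 1.03 ± 0.404, SD, n = 2). The replicate 1 region was centred 133 bp downstream of the TSS, and with the nearest region, of height 36.0, the relative height averaged 0.936. eIF4G1, the general scaffold, had a region of 43.7 with 18.6 in replicate 1 and no region in replicate 3. The eIF4G2 TSS is the one shared with CG33111, so its peak cannot be told apart from a peak of that gene.

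Among the 7 eIF4E genes 2 were bound, too few genes to set against the 17.6% of all protein-coding genes. eIF4EHP had a pooled height of 181 with 104 in replicate 1 and 79.1 in replicate 3 (relative height 1.58 ± 0.145, SD, n = 2), with its summit 123 bp upstream. eIF4E1 was at 77.6. eIF4E6 had a region of 18.0, ranked 29924 of the 30000 pooled regions, whose summit was nearer to the TSS of the divergent CG1951 (64 bp) than to its own (126 bp). eIF4E3, which is needed in spermatogenesis, and eIF4E4, eIF4E5 and eIF4E7 had no region in any list. Of the 13 factor genes without a pooled region, 9 belonged to a paralog family, and 12 had no optimal peak within 1000 bp.

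**Figure D4:**
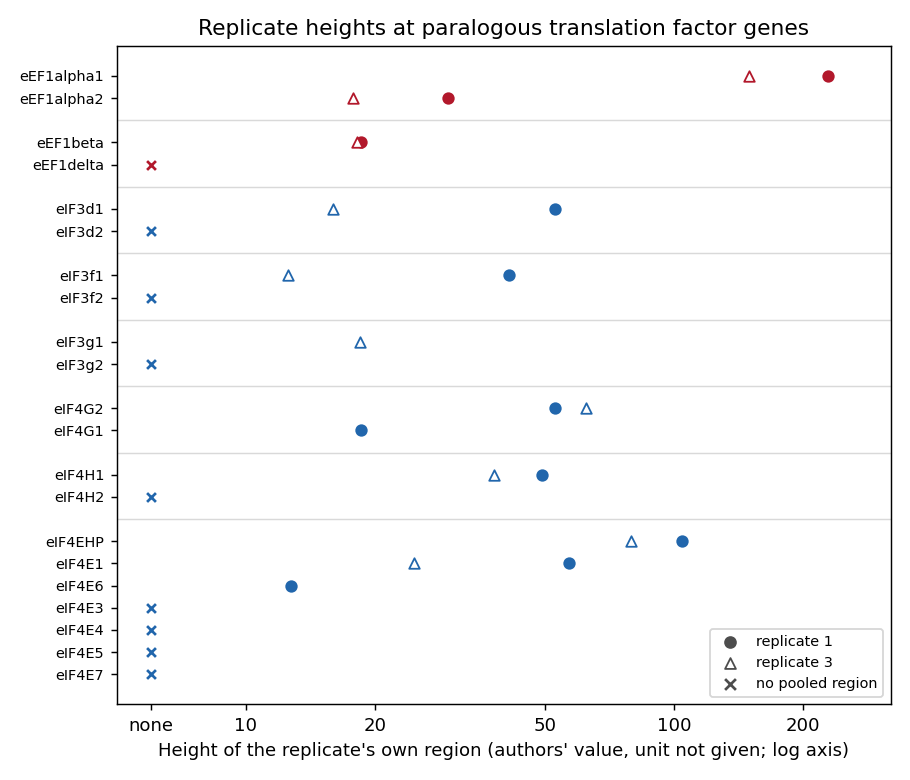
Height of the region in each replicate's own list (log axis, authors' value in a unit not given) at 21 paralogous factor genes in 8 families, with replicate 1 as filled circles, replicate 3 as open triangles and crosses for genes with no pooled region; a gene with 1 marker had no region in the other replicate. eEF1alpha1 lies above eEF1alpha2 in both replicates, and eIF4G2 lies above eIF4G1.

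The promoters of the factor genes carried the DRE more often than promoters in general. ATCGAT was sought on either strand from −100 to 50, which for this palindrome is the same on both. It was found at 22 of 52 factor genes (42.3%, interval 28.7 to 56.8), against 17.5% of all protein-coding genes. It was also frequent at the ribosomal protein genes, at 30 of 87 (34.5%, interval 24.6 to 45.4), and the 2 intervals overlap. In a window moved 200 bp downstream it was found at 1 factor gene (1.92%), against 4.87% of all genes. Bound and unbound factor genes held it at similar shares, at 10 of 22 (45.5%) and 12 of 30 (40%), while among all genes it was at 26.0% of the bound and 15.7% of the unbound. The match nearest the TSS had a median position of −38.5 at the bound and −17.5 at the unbound factor genes. By class it was at 3 of 8 elongation factor genes (eEF1gamma, eEF2 and eEF1delta) and at 19 of 44 initiation factor genes.

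Motif 1, sought by name with at most 1 mismatch on either strand in the same window, was at 11 of 52 factor genes (21.2%), against 10.6% of all. At the ribosomal protein genes it was at 23 of 87 (26.4%). It was at 7 of 22 bound factor genes (31.8%, interval 13.9 to 54.9) and 4 of 30 unbound ones (13.3%, interval 3.76 to 30.7), and the intervals overlap. The bound genes were eEF1alpha1, eIF3j, eIF4H1, eIF3k, eIF4E1, eIF2beta and eIF5B. Among the paralogs, the 9 genes without a pooled region held 1 DRE (eEF1delta) and no Motif 1, and the 12 with an optimal peak or lower region held 5 and 3.

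The exact TCT element, on the sense strand with its C between −10 and 10, was at 3 of 52 factor genes (5.77%), against 1.09% of all genes and 52 of 87 ribosomal protein genes (59.8%). Of the 3, eEF2 was bound, and eIF3e (region of 41.4) and eIF3f1 (54.8) were not. This count depends on the reference TSS. With any annotated TSS 5 factor genes held the exact element (9.62%, against 1.63% of all genes), and eIF3c and eIF3m, which were added, were both bound. The other 3 bound elongation factor genes, with heights of 378 or above, did not have the exact element, and 29 bound ribosomal protein genes without it had a median height of 339, beside 296 for the 47 with it. The TCT matches overlapped an initiator match at 2 factor genes. High peaks were thus found with and without the exact TCT element.

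The remaining elements were at or below the share of all genes. The initiator (TCA, then G or T, then T, then C or T, with at most 1 mismatch and the A between −10 and 10) was at 23 factor genes (44.2%), against 48.9%. Without a mismatch the initiator was at 1 factor gene (1.92%), against 14.0% of all genes. TATA (TATA, then A or T, AA, and A or G, starting between −40 and −20 with at most 1 mismatch) was at 5 (9.62%), against 14.6%, and at none without a mismatch. The downstream promoter element, which starts 28 bases from the initiator A and reads A or G, G, A or T, C or T, any base but T, and T, was at none of the 52 (upper limit of the interval 6.85%), against 2.82%. GAGAG on either strand was at 3 (5.77%), against 18.7%. Motif 6 was at 4 (7.69%), against 7.92%, and Motif 7 at 3 (5.77%), against 7.43%, both sought by name.

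**Figure D5:**
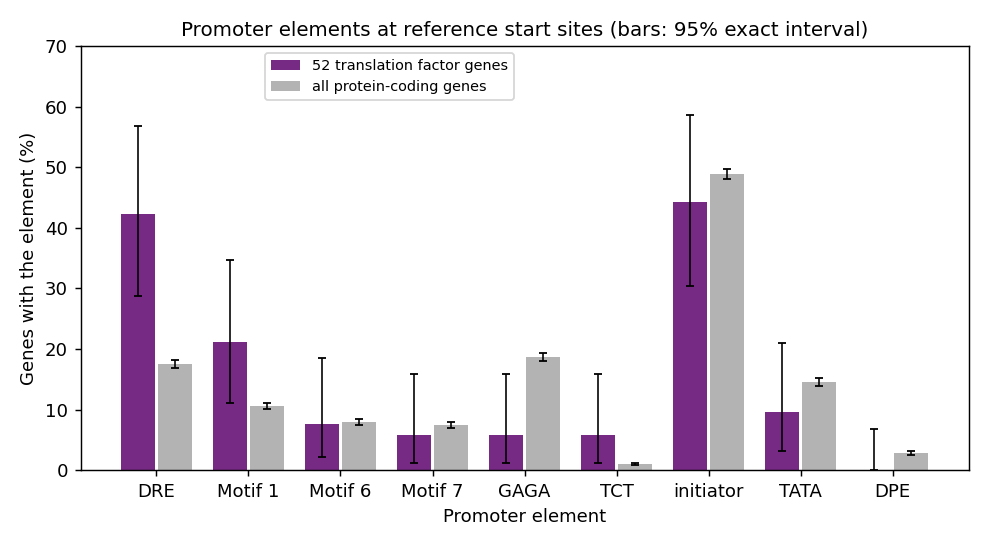
Share of genes (%) with each promoter element at the reference TSS, for the 52 factor genes (left bar of each pair) and all 13945 protein-coding genes (right bar), with 95% exact binomial intervals. The DRE is at 42.3% of the factor genes and 17.5% of all genes, and the interval of the factor genes lies above the share of all genes for the DRE, Motif 1 and TCT and below it for GAGA.

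Genes of neighbouring steps of translation were read against the same 17.6% of all protein-coding genes. Of 5 termination and recycling genes 1 was bound (20%, close to that share), namely pix (which splits ribosomes after termination, with a height of 93.7), and eRF1, the release factor, was just below the optimal set at 73.5. None of 8 mitochondrial translation factor genes was bound (interval 0 to 36.9%, which holds the share of all genes), the highest being mEFG1 at 56.8. Of 12 regulators 6 were bound (50%, interval 21.1 to 78.9), with heights between 87.5 and 165. These were Unr (165), an RNA-binding protein, Thor (155), the 4E-BP that sequesters eIF4E, Pdcd4 (102), an inhibitor of eIF4A, S6k (98.0), the ribosomal protein S6 kinase, NAT1 (96.8), an eIF4G relative, and Lk6 (87.5), the kinase of eIF4E. Thor, the repressor of eIF4E1, thus had a higher pooled peak than eIF4E1 (155 and 77.6). The 6 regulators without an optimal peak were 4E-T, Gcn2, Paip2, S6kII, crc and pAbp. Pek, Tor and poly, and mEFG2 of the mitochondrial factors, were planned but not found by symbol, so they are not in these counts.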

How the data were processed

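Per the deposited read-me files and the labels, the deposited lists hold regions called in each replicate and in the pooled replicates, 30000 each, and the authors' optimal set of 3897 peaks, all in dm6. The authors gave each region a signal value, called height here, and a summit. They also gave a −log10 q value, which sat at its ceiling of 4.08 in the deposited optimal set and was not used. Not given in the sources used here are the aligner, the peak caller and the read totals. Lists in dm3 were not used.

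TSSs (19253, of 13945 protein-coding genes) came from Ensembl release 115, and sequences from the Release 6 genome. A gene was bound when an optimal summit lay within 250 bp of a TSS. Otherwise its highest pooled region within 250 bp was taken, as a lower region. The reference TSS was the one nearest that summit, or the most upstream TSS where there was none. Because this choice uses the peaks, element shares of all genes were taken by the same rule. Each replicate's height was that of its highest region within 250 bp of the pooled summit, divided by the replicate's median over optimal peaks (70.6 in replicate 1 and 47.1 in replicate 3). Of the optimal peaks, 3884 had a region in both replicates, and 95.3% of these differed by no more than 1 log2 unit.

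Intervals are 95% Clopper-Pearson and cover counting error only. With 1 group no test was made. Named were all bound genes, all paralogs, all genes without a pooled region and the bound genes that differed most between replicates. The genes and lists were chosen with earlier results of these data known. Python 3.11.15, numpy 2.4.6, scipy 1.17.1 and matplotlib 3.10.9 were used. Summit assignment and element searches were tested on simulated data.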

Additional observations from a re-analysis of the deposited data

How the results depend on the processing

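With the highest 50% of optimal peaks 11 factor genes were bound (21.2%, against 9.01% of all protein-coding genes), among them 4 elongation and 7 initiation factor genes. Among genes with 1 TSS, 6 were bound (18.8%, against 13.6% of all such genes), 0 of 3 elongation and 6 of 29 initiation factor genes. With each replicate's own highest regions in place of the optimal set, between 15 (replicate 3 alone, 28.8%, against 16.4% of all) and 21 factor genes (replicate 1 alone, 40.4%, against 17.9%) were bound. These were 4 elongation factor genes in either replicate and between 11 and 17 initiation factor genes. Replicate 3 alone lost eIF1A, eIF2D, eIF2beta, eIF2gamma, eIF3j, eIF4E1 and eIF5B, and replicate 1 alone lost eIF2beta, eIF3k and eIF3m and gained eIF2alpha and eIF3d1. The count was 17 within 100 bp (against 10.5% of all), 23 within 500 bp (20.7%) and 20 where the peak interval had to cover the TSS (14.9%). Within 100 bp the median height was 140 and the median summit position −33 bp. The median position was between −58 and −55 bp in a single replicate. TCT with 1 mismatch was at 10 factor genes (19.2%, against 10.02% of all). The exact TCT was at 5 in a 30 bp window (9.62%, against 2.42% of all) and at 5 with any annotated TSS (9.62%, against 1.63%). With the nearest region in place of the highest, 18 of 22 relative heights moved by less than 1 SD, and eIF4G2 fell below the median optimal peak. With percentiles in the replicate lists, eIF4G2 again changed sides and the other 21 did not. No paired analysis was possible because there was only 1 group. Genes with shared promoters, 2 replicates and heights of unstated unit limit all of these counts.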
